A study of Homo sapiens with 21 samples.

Results

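The 10 genes described here are MITF and 9 pigment cell genes, PMEL, MLANA, TYR, TYRP1, DCT, MLPH, RAB27A, GPR143 and RAB38, taken by name from the known pigment cell genes, out of 58870 genes measured. MLPH and GPR143 were higher than in parental A375 cells in all 6 derived groups, by 3.88- to 21.6-fold and by 3.19- to 5.77-fold. GPR143 was low in parental cells and entered the tests only through its values in the derived groups. MITF was called higher in the 2 groups kept in BRAF and MEK inhibitors, by 4.85- and 2.31-fold. TYRP1 was higher in 3 of the 4 groups of drug-tolerant lines and lower in 1 SOX10 knockout clone. The lower call was lost under 6 of 13 alternative fits. MLANA was listed at 0 in all 21 libraries and TYR in 20 of them.

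A375 is a BRAF-mutant human melanoma cell line, and its messenger RNA was sequenced in 7 groups of 3 libraries. The groups gSOX10 #2 and gSOX10 #4 are A375 cells in which SOX10 was disrupted by CRISPR/Cas9 with different guides, each 1 clone, and no clone made with a control guide was analysed here. CRT34 and CRT35 are A375 lines tolerant of combined BRAF and MEK inhibition that were grown out of A375 xenograft tumors in mice. The medium of CRT34 Combo and CRT35 Combo held 2 drugs, PLX4720 (1 µM), which inhibits BRAF, and PD0325901 (35 nM), which inhibits MEK. CRT34 DMSO and CRT35 DMSO are the same lines without these drugs, and how long they had been off drug is not in the labels. The labels give gSOX10 #4 a clone number that belongs to a different cell line in the study's methods, so its origin is taken from the label alone. The parental group is untreated A375, and no parental library with the inhibitors was analysed here, so drug and selection cannot be told apart in the comparison of a Combo group with parental cells. The study's methods describe the replicates of the knockout clones as independent, and nothing in the labels ties the 3 libraries of a group to separate cultures, so the p-values measure the spread between these libraries, which may be technical.

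MITF, the microphthalmia-associated transcription factor, is a basic helix-loop-helix leucine zipper protein that directs melanocyte development and switches on the genes that make and move pigment. SOX10 and PAX3 are known to activate MITF in melanocytes, and MITF binds the M-box and the E-box in the promoters of its target genes. Melanin is made in melanosomes, where PMEL forms the fibrils of the matrix, TYR, TYRP1 and DCT carry out the enzymatic steps, MLANA helps PMEL to mature and GPR143 acts as a receptor that controls melanosome size and number. RAB38 guides cargo to the maturing melanosome, while RAB27A and its effector MLPH tether the finished organelle to the motor myosin Va.

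Sequences are shown for 4 promoters, those of TYRP1, GPR143 and MLPH because their RNA changed and that of TYR because its RNA was listed at 0 in 20 of 21 libraries. Each runs 5′ to 3′ over the 250 bases before a start site that RefSeq annotates on GRCh38.p14. Capitals mark the M-box core CATGTG, the E-box CACGTG and the SOX core letters ACAAAG or AACAAT. Each was searched on both strands, so that an M-box core on the other strand reads as its reverse complement. The bases that flank the core in a full M-box were not searched.
TYRP1 promoter: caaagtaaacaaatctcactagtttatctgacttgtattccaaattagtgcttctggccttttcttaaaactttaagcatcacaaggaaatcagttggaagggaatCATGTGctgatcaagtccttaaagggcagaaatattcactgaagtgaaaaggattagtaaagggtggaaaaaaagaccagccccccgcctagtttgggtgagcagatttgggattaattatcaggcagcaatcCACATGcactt
TYR promoter: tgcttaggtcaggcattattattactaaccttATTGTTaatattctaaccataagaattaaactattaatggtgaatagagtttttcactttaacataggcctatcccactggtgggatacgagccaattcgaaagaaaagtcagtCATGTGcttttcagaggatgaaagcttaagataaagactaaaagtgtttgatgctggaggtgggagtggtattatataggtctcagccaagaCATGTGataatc
GPR143 promoter: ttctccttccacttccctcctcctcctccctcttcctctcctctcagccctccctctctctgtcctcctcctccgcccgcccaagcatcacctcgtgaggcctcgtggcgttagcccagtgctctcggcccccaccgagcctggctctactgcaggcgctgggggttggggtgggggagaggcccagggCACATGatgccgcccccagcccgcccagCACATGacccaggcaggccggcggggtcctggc
MLPH promoter: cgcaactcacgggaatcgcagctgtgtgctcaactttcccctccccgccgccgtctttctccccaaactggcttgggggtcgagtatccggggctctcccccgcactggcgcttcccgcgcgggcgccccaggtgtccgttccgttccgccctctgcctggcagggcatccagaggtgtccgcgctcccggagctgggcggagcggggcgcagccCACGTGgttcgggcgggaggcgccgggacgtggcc
These stretches lie at chr9:12693135-12693384, plus strand, for TYRP1, at chr11:89177625-89177874, plus strand, for TYR, at chrX:9765848-9766097, minus strand, for GPR143 and at chr2:237487001-237487250, plus strand, for MLPH. No motif match overlaps another in the printed stretches. The RefSeq starts of TYRP1, GPR143 and MLPH lie inside the longer gene spans given below.

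TYRP1, TYR and GPR143 each held 2 copies of the M-box core in this stretch, and MLPH held 1 E-box. In TYRP1 the copies began 144 and 11 bases before the start, in TYR 104 and 12 bases before it and in GPR143 61 and 33 bases before it, while the E-box of MLPH began 35 bases before its start. TYR also had 1 SOX core, 218 bases before the start. The MLPH stretch belongs to 1 of 2 windows of that gene, and the other window held no E-box but a SOX core 236 bases before its start. RefSeq windows of 300 bases, which add the 50 bases from the start on, were found for 8 of the 10 genes, 16 windows in all, and PMEL and RAB38 had no entry. Of the 35116 windows in the table, 11.1% held an M-box core, 7.26% an E-box and 23.93% a SOX core. DCT had 2 copies of the M-box core in 1 of its 2 windows, at 215 and 134 bases before the start. RAB27A had 2 SOX cores in 1 of its 5 windows, at 149 and 81 bases before the start. The window of MLANA held none of the letters, and MITF held a SOX core in 1 of its 3 windows, not in the one that belongs to the melanocyte form of the gene. The matches are a description of the letters and not evidence of binding.

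**Figure D1:**
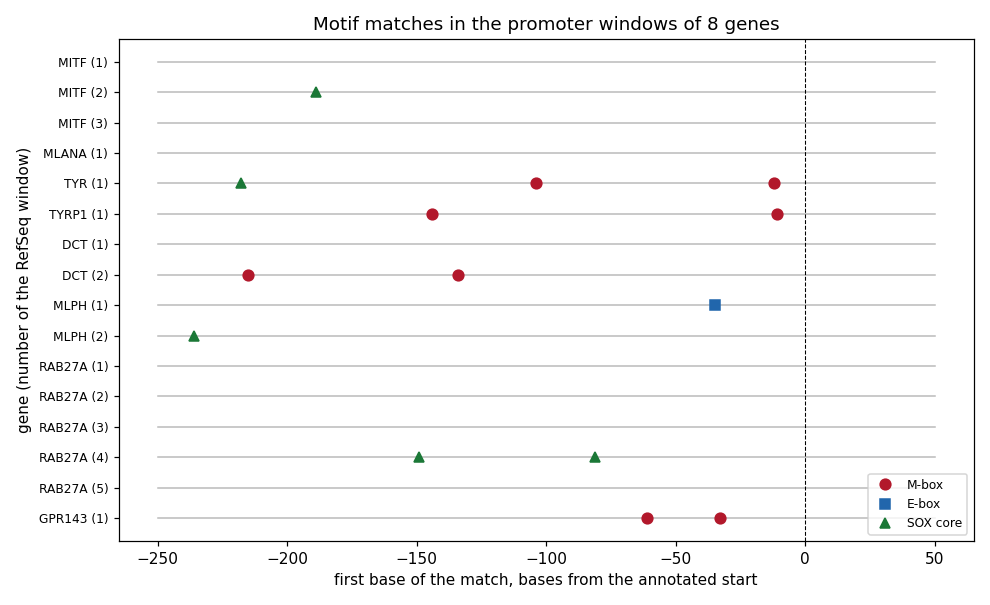
Motif matches in 16 RefSeq promoter windows of 8 genes, with the distance of the first base of each match from the annotated start on the x axis in bases and the genes on the y axis. Circles are M-box core, squares E-box and triangles SOX core matches, and the windows of TYR, TYRP1, GPR143 and 1 window of DCT carry 2 circles each.

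SOX10 was measured as a check of the labels. It stood at 392, 504 and 459.6 in gSOX10 #2 and at 456, 488 and 517 in gSOX10 #4, against 10348, 11877 and 12822 in parental cells, in normalized values (gene counts that the authors had apparently scaled per library and per gene). SOX10 was listed at 0 in every library of both Combo groups and of CRT35 DMSO, and at 6.32, 0 and 0.974 in CRT34 DMSO. The totals of the libraries ran from 59.2 to 68.3 M, and the depth estimated from the step between low values ran from 27.22 to 75.64 M reads. Replicate 3 of CRT34 Combo stood nearer to the CRT34 DMSO libraries (mean r = 0.969) than to its own group (mean r = 0.964). The main results of the 10 genes that rest on it are given with and without it. The summed level of 6 melanoma line markers was 2059 to 18672 in the derived groups and 44799 to 55250.2 in parental cells. SOX10 is itself one of these 6, so part of that fall is its own. The summed level of 6 fibroblast markers, all of them detected, was 72996 to 383191 in the 4 CRT groups, 1427 to 2987 in the clones and 528 to 667 in parental cells. The summed level of 6 leukocyte markers was 3187 to 16886 in the derived groups and 1577 to 1698 in parental cells, with the lowest sums in CRT34 DMSO and the highest in CRT35 Combo. For 6 endothelial markers it was 141 to 821 in the derived groups and 217 to 266 in parental cells, and for 6 keratinocyte markers 2341 to 4743 in the derived groups and 2621 to 2666 in parental cells. Of the leukocyte markers, CD3E was under 10 in every library, as were CLDN5 of the endothelial and KRT1 of the keratinocyte markers. Whether these shifts played a part in the changes described here was not tested, and in bulk RNA fewer cells of a type and less RNA per cell cannot be told apart.

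Of the 10 genes, 7 reached 10 in 3 or more libraries and were tested. MLANA, TYR and DCT were not. DCT, which converts dopachrome on the way to melanin, reached at most 11.2, and its 21 values were 0 in 5 libraries. The 3 untested genes carry no call, so each count below is out of 7. A gene was called when the adjusted p of limma was at most 0.05 and the fold change at least 2.

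**Figure D2:**
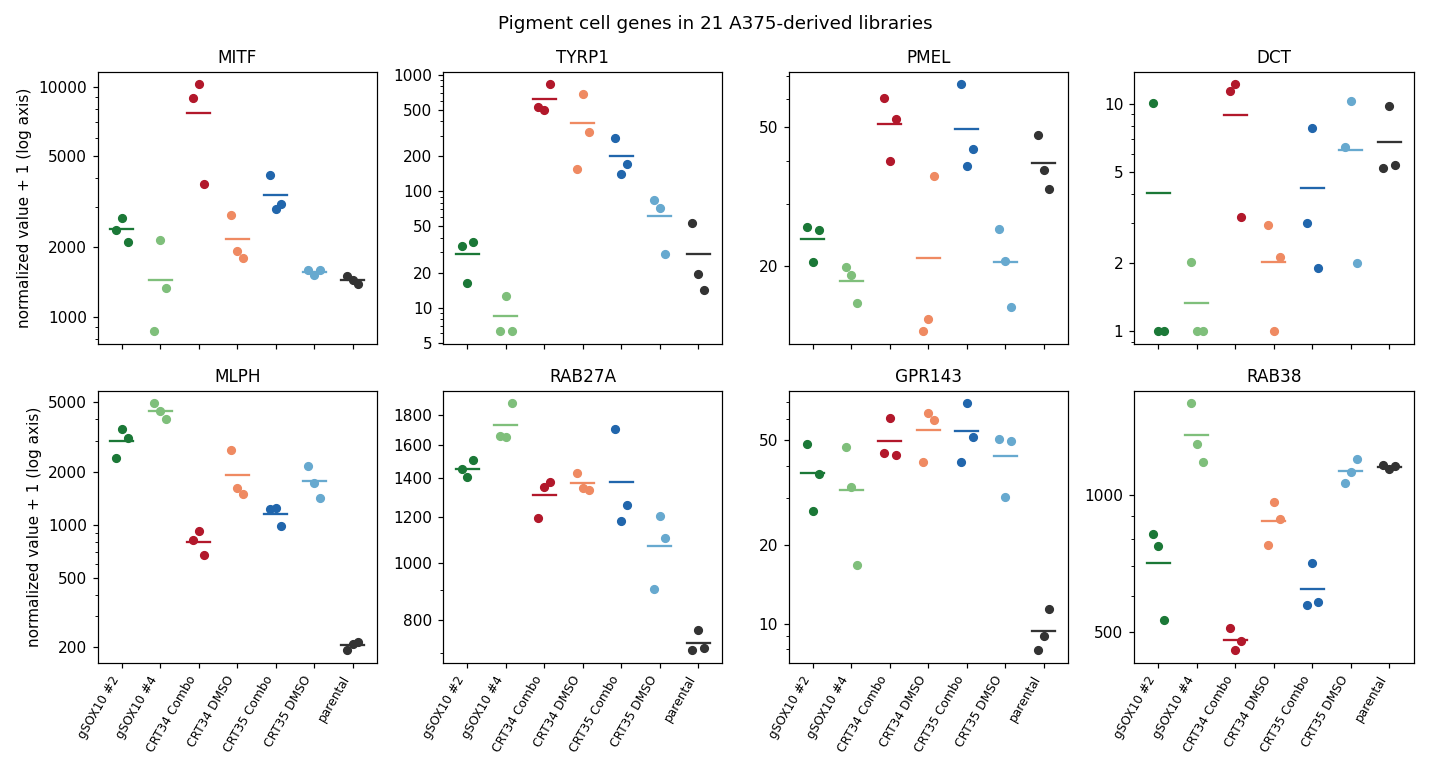
Normalized value plus 1 of 8 of the 10 genes on log axes in 21 libraries, with a point for each library and a line at the group mean, and the 6 derived groups left of parental cells. MLPH and GPR143 lie above parental cells in every derived group, and MITF stands highest in CRT34 Combo, at 7658. MLANA and TYR are left out because nearly all values were 0.

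MITF, at chr3:69739456-69968336 on GRCh38, plus strand, had 8954, 10247 and 3772 in CRT34 Combo and 4116, 2934 and 3097 in CRT35 Combo, against 1502, 1448 and 1390.0 in parental cells. Every library of both Combo groups lay above every parental library. In CRT34 DMSO the values were 2779, 1936 and 1806, and in CRT35 DMSO 1586, 1519 and 1587. The SOX10 knockout clones had 2384, 2689 and 2115 in gSOX10 #2 and 862, 2148 and 1337 in gSOX10 #4, and gSOX10 #4 overlapped parental cells on both sides. All libraries of gSOX10 #2, CRT34 DMSO and CRT35 DMSO lay above the highest parental value of 1502, the lowest of them at 1519. The group means were 7658 ± 3427 in CRT34 Combo, 3382 ± 640.5 in CRT35 Combo, 2396 ± 287 in gSOX10 #2, 2173 ± 528 in CRT34 DMSO, 1564 ± 38.8 in CRT35 DMSO, 1449 ± 650.1 in gSOX10 #4 and 1447 ± 56.1 in parental cells (SD, n = 3 each). In that order the only neighbours that differed at an adjusted p of at most 0.05 by limma were CRT34 Combo and CRT35 Combo. The values count all transcripts of the gene, so the melanocyte form was not seen apart from the others.

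The log2 fold changes of MITF over parental cells were 2.28 in CRT34 Combo (adjusted p = 1.01e-05) and 1.21 in CRT35 Combo (adjusted p = 0.00321), each with a limma standard error of 0.31. They were 0.72 in gSOX10 #2 (adjusted p = 0.0678), -0.10 in gSOX10 #4 (adjusted p = 0.84), 0.56 in CRT34 DMSO (adjusted p = 0.159) and 0.11 in CRT35 DMSO (adjusted p = 0.798), none of them called. In both clones, where SOX10 RNA was low, MITF had no called change. Without replicate 3 of CRT34 Combo, the change of that group was 2.73 (adjusted p = 2.44e-07).

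TYRP1, the enzyme that stabilizes tyrosinase and acts on melanin intermediates, lies at chr9:12685439-12710285, plus strand. Its values were 529.6, 502 and 831 in CRT34 Combo and 154, 684 and 321 in CRT34 DMSO, against 52.8, 18.4 and 13.2 in parental cells, and every library of both groups lay above the highest parental one. CRT35 Combo had 289, 139 and 169, also above all parental libraries. CRT35 DMSO had 82.9, 70.9 and 28.02, which overlap parental cells. In gSOX10 #2 the values were 33.0, 15.4 and 35.9 and in gSOX10 #4 5.28, 11.7 and 5.26, and all 3 libraries of gSOX10 #4 lay below every parental library. The log2 fold changes over parental cells were 4.62 in CRT34 Combo (adjusted p = 3.19e-06), 3.72 in CRT34 DMSO (adjusted p = 4.1e-05) and 2.96 in CRT35 Combo (adjusted p = 0.00028), with a standard error of 0.57 in limma. It was 1.19 in CRT35 DMSO (adjusted p = 0.104) and 0.16 in gSOX10 #2 (adjusted p = 0.849), both not called, and -1.63 in gSOX10 #4 (adjusted p = 0.0303). The call in gSOX10 #4 was lost under 6 of 13 alternatives, among them leaving out parental replicate 1, the library with 52.8 (log2 change -1.07, adjusted p = 0.181), gSOX10 #4 replicate 1 (-1.47, adjusted p = 0.0869) or gSOX10 #4 replicate 3 (-1.46, adjusted p = 0.0888). In CRT35 DMSO a call was gained without parental replicate 1 (1.75, adjusted p = 0.0266) or CRT35 DMSO replicate 3 (1.66, adjusted p = 0.0389).

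PMEL, the fibril protein of the melanosome matrix, lies at chr12:55954105-55973317, minus strand. It had 59.6, 39.0 and 51.7 in CRT34 Combo and 65.3, 37.6 and 42.1 in CRT35 Combo, against 46.5, 36.7 and 32.2 in parental cells, and the groups overlapped. The values were 11.97, 13.1 and 35.0 in CRT34 DMSO, 24.5, 19.7 and 14.3 in CRT35 DMSO, 24.9, 19.5 and 24.3 in gSOX10 #2 and 18.8, 17.8 and 14.6 in gSOX10 #4. All libraries of CRT35 DMSO and of both clones lay below every parental library, while 1 library of CRT34 DMSO did not. The change was called lower in gSOX10 #4 (log2 -1.12, adjusted p = 0.0256) and CRT34 DMSO (log2 -1.06, adjusted p = 0.0309) by limma, with a standard error of 0.38. In CRT35 DMSO it was -0.96 (adjusted p = 0.0476) and missed the fold threshold. There a call was gained under 3 of 14 alternatives. Among them was leaving out CRT35 DMSO replicate 1, the library with the lowest estimated depth, 27.22 M (log2 -1.14, adjusted p = 0.0445). Exons of PMEL overlap those of CDK2 on the opposite strand, which averaged 4973 over all libraries, and whether the library kit kept the strand is not known here, so reads of the pair may not be separable. CDK2 itself changed by log2 -1.17 in gSOX10 #4 (adjusted p = 0.000492, called lower) and by -0.69 in CRT34 DMSO (adjusted p = 0.0201, under the fold threshold), and its part in the values of PMEL was not tested. The PMEL call in CRT34 DMSO was lost under 7 of 13 alternatives, among them leaving out replicate 1 (log2 -0.80, adjusted p = 0.124) or 2 (-0.85, adjusted p = 0.126) of CRT34 DMSO or replicate 1 (-0.92, adjusted p = 0.11) or 2 (-1.08, adjusted p = 0.0621) of parental cells. That in gSOX10 #4 was lost under 5 of 13, among them leaving out parental replicate 1 (-0.98, adjusted p = 0.0958), parental replicate 2 (-1.14, adjusted p = 0.054) or gSOX10 #4 replicate 3 (-1.02, adjusted p = 0.0756).

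MLPH, melanophilin, at chr2:237485428-237555322 on the plus strand, had the largest fold changes of the 7 genes in the clones. Its values were 2383, 3499 and 3110.2 in gSOX10 #2 and 4917, 4463 and 3976 in gSOX10 #4, against 191, 207 and 215 in parental cells, so even the lowest clone library lay far above the highest parental one. CRT34 DMSO had 2647, 1626 and 1486, and CRT35 DMSO had 2150.1, 1728 and 1428. With both inhibitors the levels were 815, 918 and 669 in CRT34 Combo and 1226, 1241 and 976 in CRT35 Combo, below every library of the same line without them and above every parental library. The log2 fold changes over parental cells were 3.85 in gSOX10 #2, 4.44 in gSOX10 #4, 1.96 in CRT34 Combo, 3.18 in CRT34 DMSO, 2.48 in CRT35 Combo and 3.09 in CRT35 DMSO, with a standard error of 0.21. All 6 were called, with adjusted p between 1.83e-11 and 5.23e-07 by limma, and all 6 kept the call under every alternative tried.

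RAB27A, the small GTPase that binds melanophilin, lies at chr15:55202966-55319113, minus strand. It had 1452, 1408 and 1504 in gSOX10 #2 and 1653, 1651 and 1884 in gSOX10 #4, against 707, 766 and 713 in parental cells. CRT34 Combo had 1195, 1351 and 1381, CRT34 DMSO 1431, 1346 and 1338, CRT35 Combo 1699, 1183 and 1259 and CRT35 DMSO 902, 1204 and 1104. All 18 derived libraries lay above the 3 parental ones. Only gSOX10 #4 passed the fold threshold, at log2 1.24 (adjusted p = 1.7e-06), and gSOX10 #2 missed it by little at 1.00 (adjusted p = 1.91e-05, the unrounded value was 0.997). In the CRT groups the log2 changes were 0.84 to 0.91 in CRT34 Combo, CRT35 Combo and CRT34 DMSO and 0.55 in CRT35 DMSO, with adjusted p from 3.2e-05 to 0.00433 by limma and a standard error of 0.14. The call in gSOX10 #2 was gained when the libraries were scaled to equal totals (log2 1.12), without parental replicate 2 (1.03) or without gSOX10 #2 replicate 2 (1.02), and CRT35 Combo gained one without its replicate 2 (1.005). Exons of RAB27A overlap those of PIGB on the opposite strand and PIGBOS1 on the same strand, which averaged 1094 and 751, so its level is uncertain where the counting could not tell the genes apart.

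GPR143, at chrX:9725346-9786297, minus strand, was low in all groups but separate from parental cells in each. It had 47.4, 26.0 and 36.3 in gSOX10 #2 and 46.3, 32.3 and 15.7 in gSOX10 #4, against 6.91, 8.01 and 10.3 in parental cells. The CRT groups had 43.6, 59.6 and 42.7 in CRT34 Combo, 40.2, 62.3 and 58.5 in CRT34 DMSO, 40.4, 68.1 and 50.6 in CRT35 Combo and 49.7, 29.4 and 48.9 in CRT35 DMSO. The lowest of the 18 derived libraries had 15.7, above the highest parental value of 10.3. Parental values of 6.91 and 8.01 lay under the filter value of 10. The gene was thus tested only through the derived groups, where it is high. The log2 fold changes were 1.97 and 1.68 in the clones and 2.19 to 2.53 in the CRT groups, with a standard error of 0.38 and adjusted p between 2.53e-05 and 0.00205. All 6 calls were kept under every alternative tried.

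RAB38, at chr11:88113251-88175443, minus strand, was called lower in CRT34 Combo. It had 508, 454 and 475 in CRT34 Combo and 572, 708 and 579.9 in CRT35 Combo, against 1169, 1141 and 1158 in parental cells, so that all 6 libraries lay below every parental library. CRT34 DMSO had 775, 969 and 888 and CRT35 DMSO 1067, 1123 and 1204. The clones parted, with 823, 773 and 529.8 in gSOX10 #2, below all parental libraries, and 1597, 1299.6 and 1185 in gSOX10 #4, above all of them. The log2 fold change was -1.27 in CRT34 Combo (adjusted p = 5.75e-06) and called lower by limma, with a standard error of 0.17. In CRT35 Combo it was -0.91 (adjusted p = 0.00016) and in gSOX10 #2 -0.73 (adjusted p = 0.0015), under the fold threshold of 2, and in gSOX10 #4 it was 0.22 (adjusted p = 0.304). CRT35 Combo gained a call without its replicate 2 (-1.005, adjusted p = 0.000251).

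Against parental cells, 2 of the 7 genes were called in gSOX10 #2, both higher, where 23.7% of all 19290 genes tested were called, 15.9% higher and 7.78% lower. In gSOX10 #4 there were 5, 3 higher and 2 lower, where 20.7% of all genes were called, 11.8% higher and 8.91% lower. CRT34 Combo had 5, 4 higher and 1 lower (all genes 27.2%, with 19.1% higher and 8.09% lower), and CRT34 DMSO had 4, 3 higher and 1 lower (all genes 23.1%, with 15.7% higher and 7.35% lower). CRT35 Combo had 4, all higher (all genes 30.3%, with 20.1% higher and 10.2% lower), and CRT35 DMSO had 2, both higher (all genes 23.7%, with 15.7% higher and 7.98% lower). In gSOX10 #2 and CRT35 DMSO the share of the 7 was near that of all genes. MLPH and GPR143 were the 2 genes called higher in all 6 comparisons, which share the parental libraries. GPR143 passed the filter only through the derived groups, so its calls are tied to that filter.

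**Figure D3:**
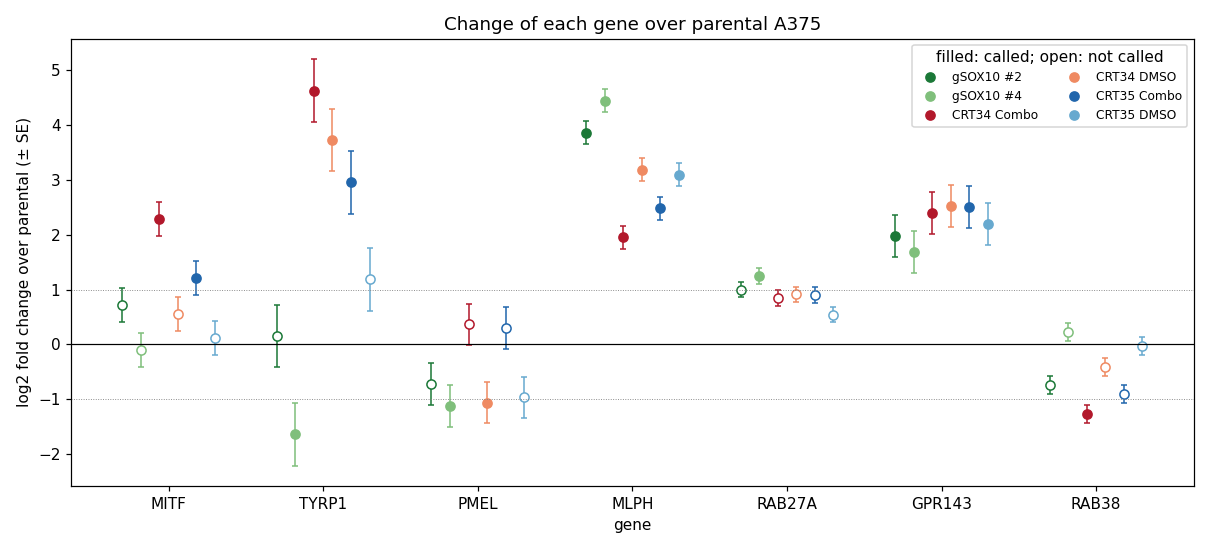
Log2 fold change over parental cells with its standard error for 7 genes (x axis) in the 6 derived groups, with filled points for called changes and dotted lines at the fold threshold of 2. MLPH and GPR143 have 6 filled points each above 0, and RAB38 has 1 filled point below 0, for CRT34 Combo at -1.27.

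The effect of the inhibitors within each CRT line was taken as Combo against DMSO. In CRT34, MITF was 3.29-fold higher with the inhibitors (7658 ± 3427 in CRT34 Combo and 2173 ± 528 in CRT34 DMSO, log2 1.72 ± 0.31 SE, adjusted p = 0.0022 by limma), and the lowest Combo library, replicate 3 with 3772, lay above the highest DMSO library with 2779. PMEL was 2.69-fold higher (adjusted p = 0.0253), a call lost without CRT34 Combo replicate 1 (adjusted p = 0.0942) or CRT34 DMSO replicate 1 (adjusted p = 0.0972) or 2 (adjusted p = 0.103). MLPH had a log2 change of -1.23 (adjusted p = 0.00141), and -0.97 without CRT34 DMSO replicate 1, under the fold threshold. These 3 calls of 7 compare with 5.1% of all genes. Fitted with those 2 groups alone the number was 0, and of all genes 36 were called instead of 983. Without replicate 3 of CRT34 Combo, MITF changed by 2.17 (adjusted p = 3.45e-05), PMEL by 1.39 (adjusted p = 0.0425) and MLPH by -1.10 (adjusted p = 0.00323). The changes of that group over parental cells were then 4.39 for TYRP1, 2.08 for MLPH and -1.27 for RAB38, all still called.

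In CRT35 the number called by limma was 0 of 7, where 1.14% of all genes were called. Of the 7, 6 had an unadjusted p under 0.05. The share of all genes under that level was not computed, so the count does not set these genes apart. The log2 changes in CRT35 Combo over CRT35 DMSO were 1.10 for MITF (adjusted p = 0.0904), 1.26 for PMEL (adjusted p = 0.112), 1.77 for TYRP1 (adjusted p = 0.139) and -0.61 for MLPH (adjusted p = 0.159), at unadjusted p between 0.00231 and 0.0085. The libraries of the 2 groups did not overlap for these 4 genes, and the share of all genes without overlap was not computed. Fitted with the 2 groups of a line alone, MITF was called higher in CRT35 (adjusted p = 0.0431) and not called in CRT34 (adjusted p = 0.126). Without CRT34 Combo replicate 3 and CRT35 DMSO replicate 1, MITF was called in both lines (adjusted p = 5.69e-05 in CRT34 and 0.0396 in CRT35). RAB38 was lower with the inhibitors in both lines at nearly the same size, by log2 -0.87 in each (adjusted p = 0.0032 in CRT34 and 0.0103 in CRT35), under the fold threshold, and it did not overlap between Combo and DMSO in either line. The difference of the drug effects between CRT35 and CRT34 was called for none of the 7 genes, where 0.0104% of all genes were. For MITF it was -0.62 ± 0.44 (SE, adjusted p = 0.871), for MLPH 0.61 ± 0.29 (adjusted p = 0.72) and for RAB27A 0.43 ± 0.20 (adjusted p = 0.695), so the drug effects of the lines cannot be said to differ or to be alike. Without replicate 3 of CRT34 Combo, 223 of all genes were called for this difference instead of 2. None of the 7 was among them, and MITF stood at -1.07 (adjusted p = 0.207). Of the 7, RAB27A alone had an unadjusted p under 0.05, 0.0449.

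**Figure D4:**
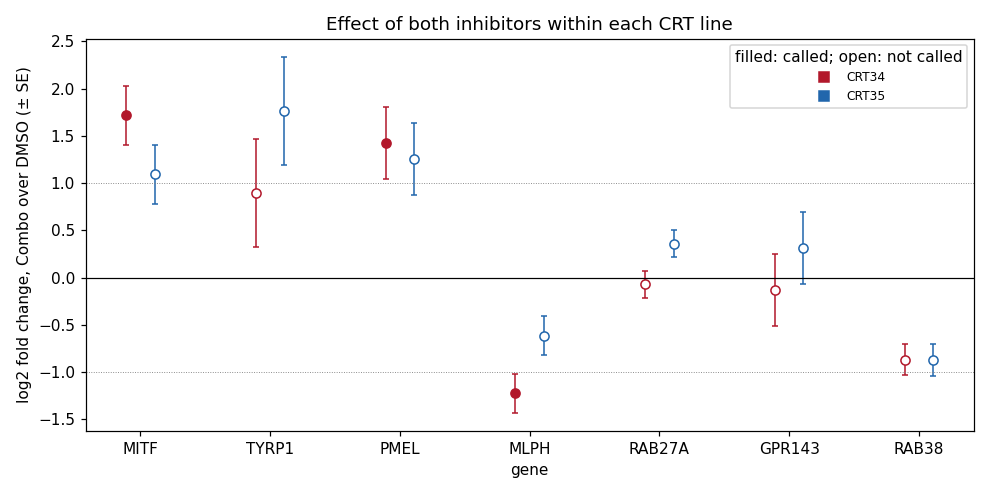
Log2 fold change of Combo over DMSO with its standard error for 7 genes in CRT34 and CRT35, with filled points for called changes and dotted lines at the fold threshold of 2. MITF, PMEL and MLPH have a filled point in CRT34 only, and RAB38 lies near -0.87 in both lines. Fitted with the 2 groups of a line alone, MITF was called in CRT35 and not in CRT34.

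Between the clones, and between the lines at the same treatment, 1 of the 7 genes was called in each comparison. TYRP1 was lower in gSOX10 #4 than in gSOX10 #2 (log2 -1.79, adjusted p = 0.031), the 1 call of 7 where 9.7% of all genes were called, and lost under 8 of 12 alternatives, 4 of which left out a library (replicate 1 or 3 of either clone). It was lower in CRT35 DMSO than in CRT34 DMSO (log2 -2.54, adjusted p = 0.00483), again the 1 call of 7 where 8.11% of all genes were, and not called when fitted with those 2 groups alone (adjusted p = 0.0529). With both inhibitors the 1 call was MITF, lower in CRT35 Combo than in CRT34 Combo (log2 -1.07, adjusted p = 0.0265), where 6.91% of all genes were called. That call was lost without CRT34 Combo replicate 1 (log2 -0.90, adjusted p = 0.0924) or 2 (-0.80, adjusted p = 0.153) and without CRT35 Combo replicate 2 (-0.98, adjusted p = 0.0947) or 3 (-1.01, adjusted p = 0.0838), and the value was -1.52 without CRT34 Combo replicate 3. Fitted with the Combo groups alone, MITF was not called (adjusted p = 0.144), while TYRP1 was, lower in CRT35 Combo (log2 -1.67, adjusted p = 0.0378). Both CRT DMSO groups together were higher in TYRP1 (log2 3.19, adjusted p = 3.44e-06) and lower in MLPH (log2 -1.01, adjusted p = 1.88e-05) than both clones together, 2 of 7 calls where 18.8% of all genes were called. The MLPH call there missed the fold threshold without replicate 2 or 3 of gSOX10 #2, replicate 1 of gSOX10 #4, replicate 2 or 3 of CRT34 DMSO or replicate 3 of CRT35 DMSO, at log2 changes of -0.99 to -0.93.

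Genes that lie upstream of MITF, or belong to its family, gave mixed counts. Of 14 such genes, 13 were tested, and over the 6 comparisons with parental cells 1 to 3 were called higher and 3 to 5 lower, where 11.8% to 20.1% of all genes were higher and 7.35% to 10.2% lower. SOX10, the disrupted gene of the clones, is one of the genes counted lower in all 6. TFEB, a lysosomal regulator of the same family, averaged 294 ± 99.9 in gSOX10 #2 and 265 ± 70.9 in gSOX10 #4, against 34.0 ± 17.8 in parental cells (SD, n = 3 each), and was called higher in 5 of the 6 comparisons. TFAP2A, a factor that works with MITF in melanocytes, was called higher in 5 of 6 as well. LEF1, a partner of beta-catenin in Wnt signaling, was called lower in all 6, with 393 ± 84.1 in gSOX10 #2 and 39.9 ± 1.87 in CRT35 Combo, against 1758 ± 196 in parental cells. PAX3, which activates MITF, averaged 558 to 1103 in the derived groups and 698 in parental cells, and was called in none of the 6.

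Of 28 genes of melanosome biogenesis and traffic, all were tested, and 2 to 5 were called higher and 0 to 1 lower, beside the same 11.8% to 20.1% of all genes higher and 7.35% to 10.2% lower. The median log2 change of the 28 ran from 0.04 to 0.27, beside medians of all genes from 0 to 0.05. RAB27B, the paralog of RAB27A, was called higher in all 6 comparisons, with 11253 ± 2241 in gSOX10 #2 and 3030.1 ± 1854 in gSOX10 #4, against 617 ± 176 in parental cells (SD, n = 3 each). SYTL2, an effector of RAB27 proteins, was called higher in 5. BACE2, a protease that cuts PMEL, was called lower in the 4 CRT groups, with 1449.9 ± 134 in CRT34 Combo, against 7072 ± 586 in parental cells. RAB32, the close relative of RAB38, was not called in any of the 6 comparisons, and MYO5A, which encodes the motor bound by MLPH, was not either.

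Of 7 transporter genes linked to melanosomes or to pigment type, 5 were tested, OCA2 and SLC24A5 being too low. SLC7A11, a cystine transporter that affects pigment type in mice, was called lower in all 6 comparisons, and ATP7A, which supplies copper to tyrosinase, higher in 3. SLC45A2, a transporter of the melanosome membrane, was called higher in CRT35 Combo alone of the 6, at a mean of 16.7, against 2.24 in parental cells. SLC45A2 stayed under 10 in parental cells and passed the filter only through derived groups. Of 24 other genes described as MITF targets, 20 were tested, and 4 to 7 were called higher and 3 to 6 lower, where again 11.8% to 20.1% of all genes were higher and 7.35% to 10.2% lower. BCL2A1, an anti-apoptotic target of MITF, and CAPN3 were called higher in all 6. In parental cells BCL2A1 had 3.22, 9.18 and 8.99 and CAPN3 0.893, 3.03 and 12.6. Both therefore passed the filter of 10 in 3 libraries only through the derived groups, where they are high. BCL2A1 averaged 78.9 in CRT34 Combo, 346 in CRT35 Combo, 691 in CRT34 DMSO and 978 in CRT35 DMSO, against 7.13 in parental cells. The CRT34 Combo libraries had 19.2, 27.4 and 190, the last being replicate 3, which stood nearer to CRT34 DMSO. With the inhibitors BCL2A1 was called lower in CRT34 (log2 -3.77, adjusted p = 0.00102) and not in CRT35 (-1.45, adjusted p = 0.258). Its change without replicate 3 of CRT34 Combo is not given here. BCL2, also anti-apoptotic, was called lower in all 6, with 191 in gSOX10 #2, against 971 in parental cells. GPM6B, a membrane glycoprotein gene, reached 10 in the parental libraries alone, which let it pass the filter, so its 5 lower calls are set by that filter. The counts of lower genes above include these calls of GPM6B, and the counts of higher genes include those of BCL2A1 and CAPN3. GALNT3, counted higher in all 6, averaged only 4.66 in gSOX10 #2 and 5.45 in gSOX10 #4, against 0.47 in parental cells. It too passed the filter only through derived groups. The medians of the log2 changes of these 20 genes ran from -0.51 to 0.13 over the 6 comparisons, beside medians of all genes from 0 to 0.05.

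The genes whose log2 values followed MITF most closely over the 21 libraries, among 12219 protein-coding genes with a mean of at least 100, were LIPA (Pearson r = 0.904), HEG1 (0.89), SEMA3E (0.888), PPM1H (0.869) and MTUS1 (0.861). For MLPH they were THBD (0.95), EDNRA (0.935), CYTH4 (0.934), MAPK13 (0.932) and SOX9 (0.93). Among the 7 genes themselves, MITF and RAB38 had r = -0.864, and MLPH and RAB27A had r = 0.818. These libraries fall into groups, so the values describe the order of groups as much as that of libraries.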

How the data were processed

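Messenger RNA of 21 libraries, 7 groups of 3, was sequenced by the authors in paired-end mode. The submitters' processing notes list GRCh38, DESeq2, Picard, RSEM and STAR 2.6.1a, and labels and methods name different library kits, so the strand setting is not known here. The authors deposited signal values, gene counts from RSEM apparently divided by a size factor per library and a factor per gene. That reading rests on the values, since between 18.03% and 63.73% of values under 10 steps lay at a whole number of steps to within 0.05, and whole reads were not recovered. No count test was used, since these are not counts.

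Symbols and positions came from GENCODE version 44, which matched 58472 of 58870 identifiers. Genes that reached 10 in 3 or more libraries (19290 of 32889 with any value above 0) were tested with limma 3.58.1 in R 4.3.3 with a mean-variance trend on log2(value + 1), so that fold changes of low genes are understated. One mean per group was fitted over all 21 libraries without a covariate, with 14 residual and 4.70 prior degrees of freedom, and p-values were adjusted by the Benjamini-Hochberg method over all genes within each comparison. Thresholds were an adjusted p of 0.05 and a fold of 2. The script was tested on simulated data. Promoters came from RefSeq on GRCh38.p14, in windows of 300 bases.

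Same-numbered libraries deviated together in 1 of 15 pairs of groups, CRT34 Combo and CRT35 Combo (r = 0.218, 0.253 and 0.207), and a block for these was added after the data were seen. The 10 genes, the further lists and the tests were chosen with earlier results of these data known. All 10 genes are named. From each further list the genes called in most comparisons with parental cells, up to 2 per direction, are named. RAB32, MYO5A and PAX3 were added as partners or relatives, and GALNT3 for its low level. The 5 protein-coding genes most like MITF and most like MLPH, the other gene with the highest mean, are given. Alternatives were no filter, a pseudocount of 10, equal totals, quantile normalization, only the compared groups, no trend, a replicate block, leaving out each library, and leaving out CRT34 Combo replicate 3 with CRT35 DMSO replicate 1. One marker gene is not reported here.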

Additional observations from a re-analysis of the deposited data

Results flagged for a closer look

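In 4 cases the same contrast differed between lines or clones by a test of the difference itself (limma, adjusted over all genes). TYRP1 was lower in gSOX10 #4 than in gSOX10 #2 by a log2 change of -1.79 (adjusted p = 0.031), with all 3 libraries lower, a call lost under 8 of 12 alternatives. RAB38 was higher in gSOX10 #4 than in gSOX10 #2 by 0.96 (adjusted p = 0.000432), under the fold threshold of 2 and so not called, and all 3 libraries of gSOX10 #4 lay above every parental library while all 3 of gSOX10 #2 lay below. TYRP1 was lower in CRT35 DMSO than in CRT34 DMSO by -2.54 (adjusted p = 0.00483), in 3 of 3 libraries, a call lost with the compared groups only (adjusted p = 0.0529). MITF was lower in CRT35 Combo than in CRT34 Combo by -1.07 (adjusted p = 0.0265), though 1 library of CRT34 Combo, at 3772, fell below the highest of CRT35 Combo, at 4116, and the call was lost under 5 of 15 alternatives.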

How the results depend on the processing

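Of 91 changes of the 7 genes (13 comparisons), 30 were called, 20 kept the call under every alternative, 51 were not called under any, and 0 called values were reversed. The number of genes called for gSOX10 #4 against parental cells was 3 with no filter and with a pseudocount of 10, and 3 to 5 when 1 library was left out. CRT34 Combo against CRT34 DMSO gave 0 with the compared groups only, and 1 to 3 without 1 library. CRT35 Combo against CRT35 DMSO gave 1 with the compared groups only, and 1 without CRT34 Combo replicate 3 and CRT35 DMSO replicate 1, MITF in both. The gSOX10 clones against each other gave 0 with no filter, a pseudocount of 10 or the compared groups only, and 0 to 2 without 1 library. CRT35 DMSO against CRT34 DMSO gave 0 with the compared groups only. CRT35 Combo against CRT34 Combo gave 2 with a pseudocount of 10 or quantile normalization, and 0 to 1 without 1 library. CRT DMSO lines against clones gave 1 to 2 without 1 library. The cause was not tested. Among the 18 libraries other than gSOX10 #2, which the labels number alike, a replicate block changed no call named here; it was not run for comparisons with gSOX10 #2. With a block for the CRT Combo groups MITF in CRT35 Combo against CRT34 Combo had an adjusted p of 0.0138. Quantile normalization lowered the share of called genes that were higher, in gSOX10 #2 against parental cells to 53.9% instead of 67.1%, and equal totals shifted the median change of all genes there to 0.15. Values near 0 limit MLANA, TYR and DCT, which were not tested.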
